A study of Mus musculus with 9 samples.

Results

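The phospholipase A2 and eicosanoid pathway genes were examined in back skin of male BALB/c mice by RNA sequencing. They were chosen by name, as the rows of the count table whose symbol starts with Pla2g and a digit (18 genes) and 25 named genes of prostaglandin and leukotriene synthesis, breakdown and reception, which gave 43 of the 29205 genes in the table. Pla2g2a, Pla2g10 and Pla2g16 were not analysed here. The mice, 6 to 8 weeks old, were all shaved and depilated on the back. The control group received no treatment (the labels write "blank" and name no vehicle cream). The IMQ group received 62.5 mg of a 5% imiquimod (IMQ) cream on the back skin daily for 5 days, which gives a psoriasis-like inflammation. The LYS group received the same cream and Longkui Yinxiao soup (LYS), an herbal decoction given by mouth at the higher of the doses the study used. Skin was collected on day 13, so IMQ skin is a chemically provoked, short-lived model, and no group received LYS without IMQ. Each group held 3 libraries (n = 3 throughout). Nothing in the labels states that the libraries came from separate mice, so p-values measure the spread between these samples.

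Phospholipases A2 release a fatty acid, often arachidonic acid, and a lysophospholipid from membrane phospholipids. Cyclooxygenases turn arachidonic acid into prostaglandin H2, from which terminal synthases make prostaglandins E2, D2 and I2 and thromboxane, whereas lipoxygenases turn it into hydroxy fatty acids and leukotrienes. In skin these lipids are known for swelling, pain and the attraction of neutrophils, and several of the enzymes also serve the lipid barrier of the epidermis.

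Library totals ran from 17149506 to 19609878 counts for control, from 16915191 to 17988104 for IMQ and from 14658645 to 16743869 for LYS libraries. The label "skin" was borne out by keratinocyte markers in every library, with 6 basal markers summing to between 1900 and 13014 CPM. Counts scaled to library size (CPM) are given after TMM scaling over all 9 libraries and serve to compare libraries for a single gene. Fragment counts per exon length and library size (FPKM) serve to compare genes with each other. A gene counted as differentially expressed (DEG) where the log2 fold change exceeded 0.58 in size and the Benjamini-Hochberg adjusted p was below 0.05 over all genes tested, by the quasi-likelihood test of edgeR. Log2 fold changes and adjusted p-values below are from that test unless another fit is named. The ± value after a log2 fold change is a standard error derived from the test. It is the size of the log2 fold change divided by the square root of the F statistic. In whole skin, fewer cells of a type and less RNA per cell cannot be told apart.

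The DNA before 4 genes that rose after IMQ is shown because 2 of them lie on either side of Pla2g4d on chromosome 2 and the others are the lipoxygenase and the cyclooxygenase with the largest rises. RefSeq promoter entries (GRCm38.p6) were found for 35 of the 43 members. Each line gives the 250 bases before the annotated start, 5′ to 3′ on the strand of the gene, and the capitals mark the letters TTGCNNAA, a C/EBP-type motif searched on both strands. C/EBP factors are transcription activators of inflamed epidermis and myeloid cells.
Ptgs2, plus strand, chr1:150099781-150100030: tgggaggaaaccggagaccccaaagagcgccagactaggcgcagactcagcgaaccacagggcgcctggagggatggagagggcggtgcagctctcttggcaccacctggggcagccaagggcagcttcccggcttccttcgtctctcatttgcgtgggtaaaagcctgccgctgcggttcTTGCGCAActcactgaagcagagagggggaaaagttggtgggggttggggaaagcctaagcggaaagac
Pla2g4e, minus strand, chr2:120245336-120245585: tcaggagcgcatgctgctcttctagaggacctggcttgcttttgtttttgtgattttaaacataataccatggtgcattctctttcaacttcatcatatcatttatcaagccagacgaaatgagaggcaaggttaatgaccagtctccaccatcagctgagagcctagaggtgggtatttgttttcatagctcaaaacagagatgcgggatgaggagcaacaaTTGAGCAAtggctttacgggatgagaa
Pla2g4f, minus strand, chr2:120314166-120314415: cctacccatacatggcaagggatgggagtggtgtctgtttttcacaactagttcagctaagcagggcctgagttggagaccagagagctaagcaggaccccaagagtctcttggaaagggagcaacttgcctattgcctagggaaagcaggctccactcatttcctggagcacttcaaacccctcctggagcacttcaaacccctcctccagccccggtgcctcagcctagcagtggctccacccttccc
Alox8, minus strand, chr11:69197844-69198093: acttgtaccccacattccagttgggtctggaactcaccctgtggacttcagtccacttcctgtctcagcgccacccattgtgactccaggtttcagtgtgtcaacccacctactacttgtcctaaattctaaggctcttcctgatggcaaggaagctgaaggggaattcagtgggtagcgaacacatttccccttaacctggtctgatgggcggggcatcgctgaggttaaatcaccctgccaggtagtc
The motif lay 69 bases before the start in Ptgs2 and 27 bases before it in Pla2g4e. It was not among the letters of the windows of Pla2g4f and Alox8. Among all 27025 promoter windows of the same length, 9.55% held it. Of the 11 members that rose after IMQ and have an entry, 3 held it (Hpgds, Ptgs2 and Pla2g4e), as did 1 of the 10 that fell (Pla2g12a). Other motifs were searched on both strands too. The TATA box, spelled TATAAA, was in 13.0% of all windows, in 1 of the 11 (Pla2g4d) and in 1 of the 10 (Tbxas1). The cAMP response element, searched as ACGTCA, was in 6.56% of all windows and in none of the 11 or the 10. The AP-1 motif, with the letters TGANTCA, was in 6.87% of all windows, in 0 of the 11 and in 3 of the 10 (Ptgds, Pla2g2e and Tbxas1). The STAT motif, written TTCNNNGAA, was in 7.18% of all windows, in 1 of the 11 (Pla2g7) and in 0 of the 10. The NF-kB motif was in 7.01% of all windows, in 0 of the 11 and in 1 of the 10 (Ptgds). None of these 5 was in the 4 windows printed, and no printed match overlapped another motif. The window of Ptgs2 overlaps an exon of the antisense gene Ptgs2os, and that of Pla2g4e an exon of the noncoding gene Gm13997. The window of Pla2g4d lies partly inside its own annotated gene and is not printed. The windows of Pla2g7, Pla2g12a, Tbxas1 and Ptgds lie wholly inside their own annotated genes, and that of Hpgds partly. Motif matches in these windows are therefore not all upstream of the annotated gene. A match is a description of letters and was not tested for use by a factor.

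IMQ skin against control skin was compared to see how the pathway stood in the inflamed model. The genes of phospholipid cleavage in the epidermis (Pla2g4d, Pla2g4e, Pla2g4f and Pla2g2f), Ptgs2, Ptges, Alox8 and both leukotriene B4 receptors rose, by between 5.79-fold (Ptges) and 333-fold (Pla2g4d). The prostaglandin E2 receptors Ptger2, Ptger3 and Ptger4, the synthases Ptgds, Ptgis and Tbxas1 and the lipoxygenase Alox12e fell, by between 2.13-fold (Ptger2) and 13.3-fold (Ptgds). Of 39 members tested, 14 were upregulated and 11 downregulated. Among all 15976 genes tested, 24.1% were upregulated and 26.9% downregulated, so that the members' counts stand against a background in which most genes moved. The median log2 fold change was 0.20 over the 39 members and −0.06 over all genes tested.

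**Figure D1:**
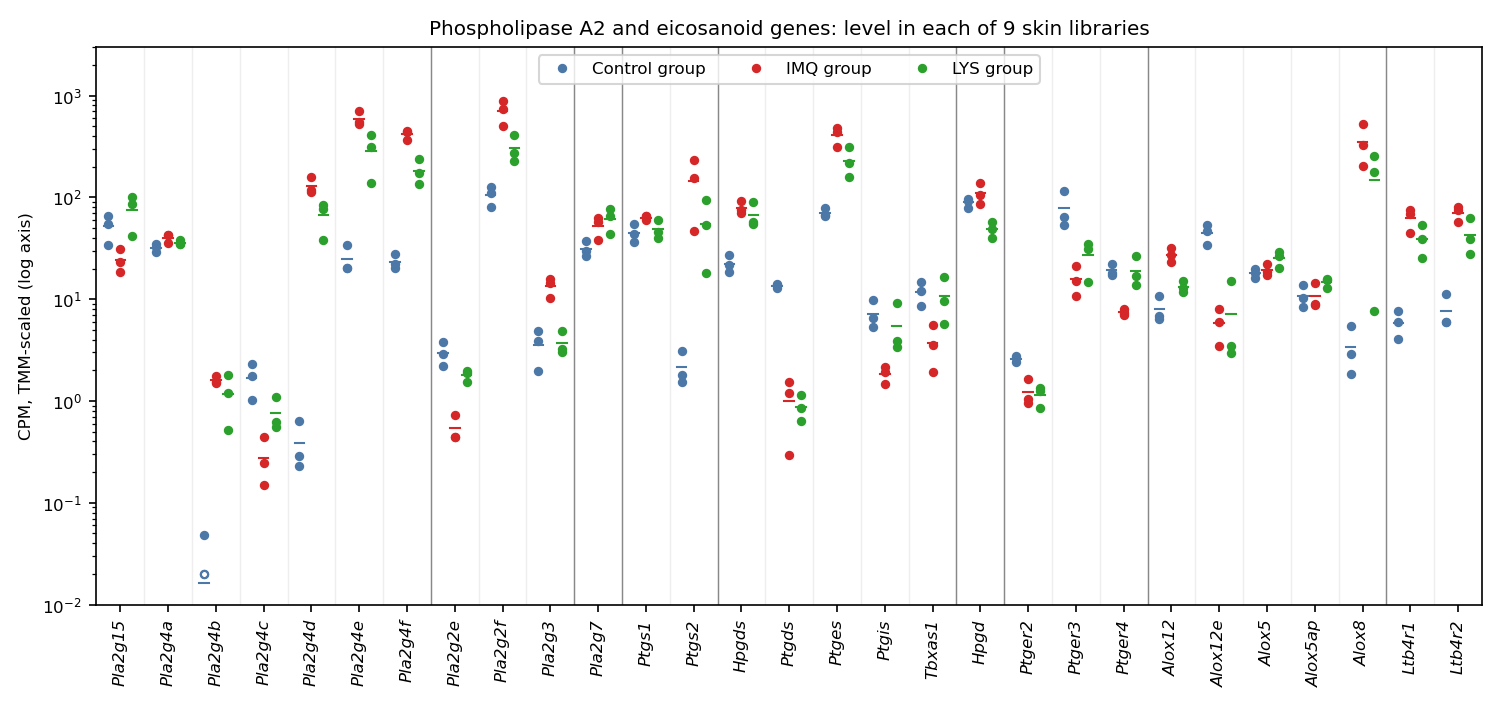
CPM on a log axis of 29 members (Alox15 is not plotted), with points for libraries, short lines for group means, blue for the control group, red for IMQ and green for LYS. An open point near the lower edge is a library with 0 counts (Pla2g4b), and grey lines divide the roles. The IMQ points of Pla2g4d, Pla2g4e, Pla2g4f, Ptgs2 and Alox8 lie above all control points, and those of Ptgds and Alox12e below them.

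The neighbouring genes Pla2g4e, Pla2g4d and Pla2g4f on chromosome 2, cytosolic phospholipases A2 of group IV, rose in IMQ skin. Pla2g4d (ENSMUSG00000070719, chr2:120265595-120289197), an enzyme known from psoriatic epidermis, stood at 0.290, 0.231 and 0.634 CPM in control, 114, 159 and 119 CPM in IMQ and 77.5, 84.8 and 38.5 CPM in LYS libraries. The control level rests on 6, 5 and 13 counts, and all 6 treated libraries were far above it. The log2 fold change was 8.38 ± 0.30, adjusted p = 3.21e-06, or 333-fold. Pla2g4e (ENSMUSG00000050211, chr2:120166412-120245335), which also transfers acyl chains to make N-acylated phospholipids, measured 20.4, 20.3 and 34.3 CPM in control, 519.8, 709 and 550.3 CPM in IMQ and 408, 314 and 138 CPM in LYS libraries. Its IMQ libraries exceeded every control library, with a log2 fold change of 4.56 ± 0.27, adjusted p = 1.59e-05. For Pla2g4f (ENSMUSG00000046971, chr2:120299957-120314165) the libraries held 22.3, 20.2 and 27.8 CPM in control, 369.7, 435 and 448 CPM in IMQ and 237, 172 and 136 CPM in LYS libraries. The 3 groups of Pla2g4f did not overlap, and the IMQ group was higher than the control group by 4.15 ± 0.18, adjusted p = 5.57e-06 on the log2 scale.

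The other group IV genes differed from these neighbours. Pla2g4a (ENSMUSG00000056220, chr1:149829618-149961290), the arachidonate-selective enzyme that supplies most eicosanoid synthesis in many cells, read 34.6, 29.2 and 32.2 CPM in control, 42.4, 42.6 and 35.9 CPM in IMQ and 38.4, 34.6 and 34.6 CPM in LYS libraries. Its IMQ libraries lay above the control libraries, but the log2 fold change of 0.33 ± 0.12, adjusted p = 0.0495 was under the fold threshold, and it turned to −0.12 when libraries were scaled by their totals alone. Pla2g4c (ENSMUSG00000033847, chr7:13324655-13360672), a membrane-bound member, was downregulated, from 1.74, 1.02 and 2.29 CPM in the control group to 0.243, 0.149 and 0.440 CPM in the IMQ group (−2.58 ± 0.52, adjusted p = 0.00331). The LYS libraries of Pla2g4c held 0.559, 0.622 and 1.09 CPM, above the IMQ libraries and overlapping the control libraries. Pla2g4b (ENSMUSG00000098488, chr2:120033417-120043030) was at 1, 0 and 0 counts in the control group and at 1.76, 1.49 and 1.54 CPM in the IMQ group, which is at least 11.1-fold higher against a floor of 3 counts per library. The LYS libraries of Pla2g4b held 1.19, 1.81 and 0.517 CPM. This gene shares its exons with the readthrough gene Gm28042 on the same strand. It also overlaps exons of Sptbn5 on the other strand, which had a mean of 57.8 counts per library. The value of Pla2g4b is therefore uncertain.

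Among the remaining intracellular forms, Pla2g15 (ENSMUSG00000031903, chr8:106150399-106164715), the lysosomal phospholipase, was downregulated by IMQ (−1.11 ± 0.27, adjusted p = 0.00790). Its libraries held 55.2, 66.3 and 34.04 CPM in control, 30.8, 22.96 and 18.5 CPM in IMQ and 41.8, 86.1 and 100.05 CPM in LYS libraries, with every IMQ library below every control library. Pla2g6, the calcium-independent enzyme, had a log2 fold change of −0.39 ± 0.17, adjusted p = 0.0796.

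The secreted phospholipases A2 moved in both directions. Pla2g2f (ENSMUSG00000028749, chr4:138750533-138757626), known as the secreted form of suprabasal keratinocytes, was already the member with the largest share of the Pla2g class in control skin and stood at 109.7, 79.98 and 127 CPM in control, 505, 743 and 884 CPM in IMQ and 411, 226 and 271 CPM in LYS libraries. Every IMQ library was above every other library, and the log2 fold change was 2.74 ± 0.26, adjusted p = 8.71e-05. Pla2g3 (ENSMUSG00000034579, chr11:3488284-3499350), related to bee venom phospholipase, rose from 3.92, 1.99 and 4.83 to 10.2, 14.4 and 15.8 CPM (1.90 ± 0.33, adjusted p = 0.00160), whereas the LYS libraries held 4.89, 2.998 and 3.27 CPM. Pla2g3 overlaps Inpp5j on the other strand. Pla2g2e (ENSMUSG00000028751, chr4:138877942-138882817), the secreted form known from mouse hair follicles, gave 2.22, 2.91 and 3.80 CPM in control, 0.730, 0.447 and 0.440 CPM in IMQ and 1.54, 1.87 and 1.95 CPM in LYS libraries. It was downregulated in IMQ skin (−2.44 ± 0.38, adjusted p = 9.23e-04), and the LYS libraries lay between the other groups. Pla2g12a fell, with a log2 fold change of −0.61 ± 0.20, adjusted p = 0.0268, close to the fold threshold. Pla2g2d (0.57 ± 0.24, adjusted p = 0.0703) and Pla2g5 (−1.11 ± 0.59, adjusted p = 0.135) did not pass the test. Pla2g1b, Pla2g2c and Pla2g12b were too low to test, with Pla2g1b counted only in Control 2. Pla2g7 (ENSMUSG00000023913, chr17:43568098-43612201), the secreted acetylhydrolase that inactivates platelet-activating factor, rose modestly, from 37.04, 29.6 and 26.5 to 38.1, 62.8 and 57.5 CPM (0.76 ± 0.20, adjusted p = 0.0123). The call for Pla2g7 was lost without IMQ 2 (adjusted p = 0.0517 in edgeR's test).

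Per length, the summed Pla2g level was 127 ± 8.28 FPKM (SD) in control skin, 490 ± 48.8 FPKM in IMQ skin and 323 ± 35.6 FPKM in LYS skin. FPKM is scaled by library totals alone. In TMM-scaled CPM the sums were 352 ± 6.85, 2042 ± 298 and 1084 ± 227 in the same order. Pla2g4d, Pla2g4e and Pla2g4f together held 9.90% of the FPKM sum in control skin, 42.8% in IMQ skin and 36.5% in LYS skin. The share of Pla2g2f was 38.4% ± 7.77, 48.2% ± 5.75 and 38.9% ± 7.11 in the same order, with overlapping libraries. Pla2g4a held 4.51% ± 0.297 of the class in control skin and 1.10% ± 0.272 in IMQ skin, although its own CPM did not fall. These shares are descriptions, since an exact permutation test of 3 against 3 libraries cannot pass 0.05.

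**Figure D2:**
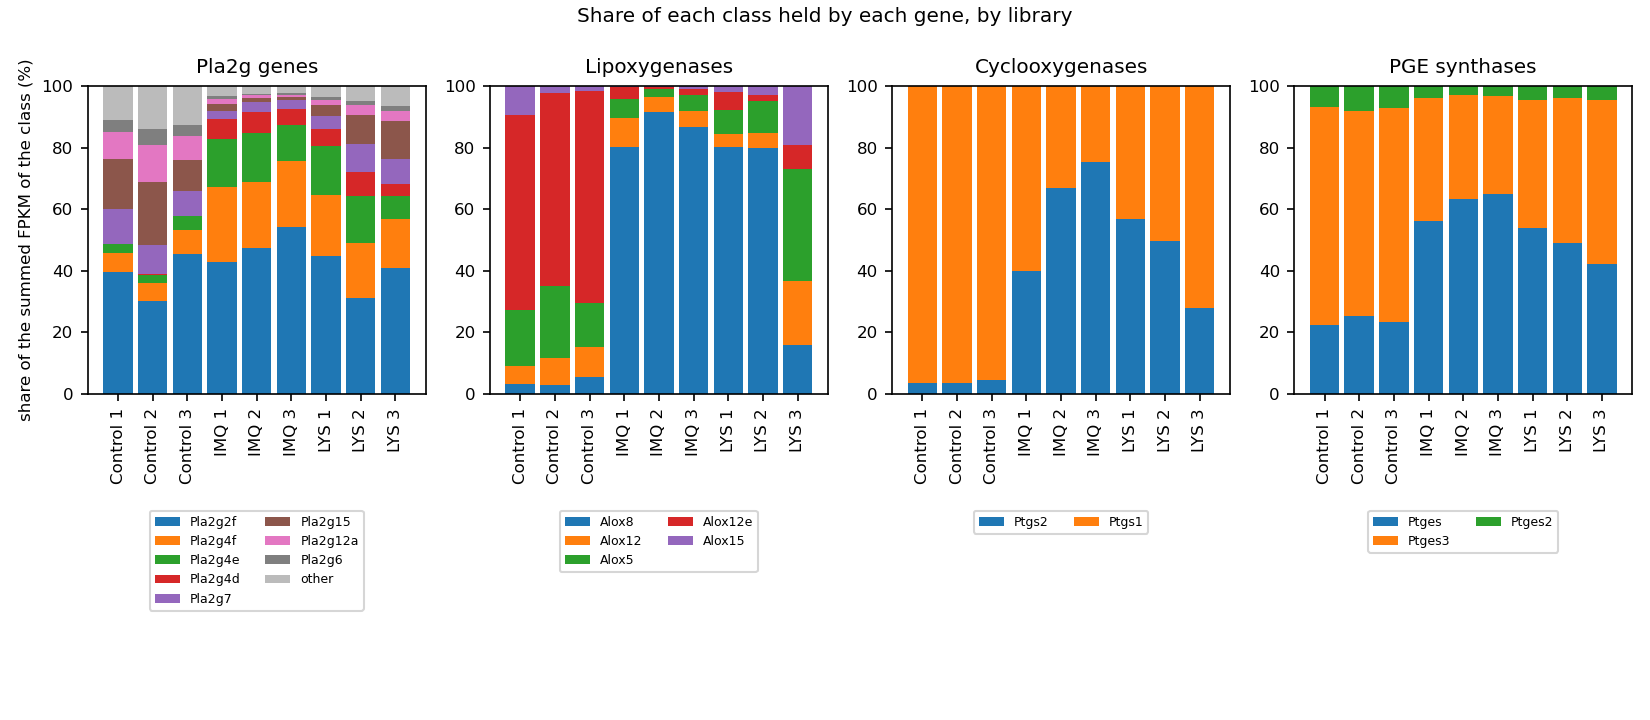
Stacked bars show, for each of the 9 libraries, the percentage of the summed FPKM of a class held by each gene, for Pla2g genes (genes under 5% in all libraries are pooled as other), lipoxygenases, cyclooxygenases and prostaglandin E (PGE) synthases. Alox8 holds 80.2%, 91.5% and 86.6% of the lipoxygenase sum in the IMQ libraries and 15.7% in LYS 3, and Alox12e holds 62.9% to 68.9% in the control libraries.

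Of the 2 cyclooxygenases, the inducible Ptgs2 (ENSMUSG00000032487, chr1:150100031-150108227) rose and the constitutive Ptgs1 (ENSMUSG00000047250, chr2:36230426-36252272) was not a DEG. Ptgs2 stood at 1.79, 1.53 and 3.12 CPM in control, 46.5, 155 and 233 CPM in IMQ and 93.5, 53.1 and 18.2 CPM in LYS libraries. All IMQ and LYS libraries were above all control libraries, but the highest IMQ library was 5.01 times the lowest, IMQ 1, and the highest LYS library was 5.14 times the lowest, LYS 3. The log2 fold change in IMQ skin was 6.06 ± 0.64, adjusted p = 1.43e-04. Ptgs1 measured 43.3, 36.7 and 55.1 CPM in control, 59.6, 65.1 and 65.2 CPM in IMQ and 60.4, 45.7 and 40.1 CPM in LYS libraries, and its log2 fold change of 0.48 ± 0.16, adjusted p = 0.0285 was under the fold threshold. Without Control 3, Ptgs1 was a DEG (0.65, adjusted p = 0.00493 in edgeR's test). Over all fits tried, the log2 fold change of Ptgs1 in IMQ skin went down to 0.024. Ptgs2 accounted for 3.79% ± 0.684 of the summed cyclooxygenase FPKM in control skin, 60.6% ± 18.5 in IMQ skin and 44.7% ± 15.1 in LYS skin. On chromosome 1 Ptgs2 lies 138740 bases from Pla2g4a, which was not a DEG.

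Of the terminal synthases, Ptges and Hpgds rose, and Ptgds, Ptgis and Tbxas1 fell. Ptges (ENSMUSG00000050737, chr2:30889471-30929863), the inducible microsomal prostaglandin E synthase, held 65.7, 77.9 and 66.7 CPM in control, 309, 479 and 438 CPM in IMQ and 311, 219 and 157 CPM in LYS libraries. Its IMQ libraries exceeded the control libraries without overlap (2.53 ± 0.19, adjusted p = 3.24e-05). The cytosolic Ptges3 and the membrane-associated Ptges2 had log2 fold changes of 0.16 ± 0.11 and −0.03 ± 0.13 and were not DEGs. Ptges made up 23.6% ± 1.48 of the PGE synthase FPKM in control skin, 61.4% ± 4.60 in IMQ skin and 48.3% ± 5.94 in LYS skin. The 2 prostaglandin D synthases went opposite ways. Hpgds (ENSMUSG00000029919, chr6:65117293-65144908), the hematopoietic form, was measured at 27.2, 18.3 and 21.5 CPM in control, 74.4, 91.3 and 69.6 CPM in IMQ and 54.4, 90.1 and 57.6 CPM in LYS libraries. It was upregulated (1.80 ± 0.17, adjusted p = 8.83e-05), with no control library reaching a treated one. Ptgds (ENSMUSG00000015090, chr2:25466709-25470046), the lipocalin form, showed 12.8, 13.8 and 14.2 CPM in control, 1.52, 1.19 and 0.293 CPM in IMQ and 0.629, 1.13 and 0.861 CPM in LYS libraries. It was downregulated (−3.73 ± 0.40, adjusted p = 1.60e-04), and IMQ 3 was the lowest IMQ library. Ptgis (ENSMUSG00000017969, chr2:167191805-167240604), prostacyclin synthase, held 6.53, 9.81 and 5.32 CPM in control, 1.95, 2.16 and 1.47 CPM in IMQ and 3.35, 3.85 and 9.24 CPM in LYS libraries, a fall in IMQ skin (−1.96 ± 0.31, adjusted p = 9.21e-04). For Tbxas1 (ENSMUSG00000029925, chr6:38875404-39084585), thromboxane synthase, the values were 14.8, 12.1 and 8.58 CPM in control, 5.53, 3.58 and 1.91 CPM in IMQ and 5.66, 9.67 and 16.6 CPM in LYS libraries, also lower in every IMQ library than in any control library (−1.68 ± 0.37, adjusted p = 0.00516).

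The PGE2 receptors that could be tested fell while Ptges rose. Ptger3 (ENSMUSG00000040016, chr3:157566892-157645888), the Gi-coupled EP3 receptor, had 64.5, 117 and 53.4 CPM in control, 20.97, 10.8 and 15.2 CPM in IMQ and 14.7, 31.2 and 35.2 CPM in LYS libraries. It made up 78.4% ± 7.79 of the summed EP receptor FPKM in control skin, and it fell (−2.32 ± 0.34, adjusted p = 7.17e-04). Ptger4 (ENSMUSG00000039942, chr15:5206661-5244187), the Gs-coupled EP4 receptor, had 18.2, 17.3 and 22.04 CPM in control and 8.09, 6.93 and 7.26 CPM in IMQ libraries (−1.37 ± 0.17, adjusted p = 2.91e-04), and 13.7, 16.9 and 26.6 CPM in LYS libraries. Ptger2 (ENSMUSG00000037759, chr14:44988195-45003820), the Gs-coupled EP2 receptor, was low throughout, at 2.66, 2.78 and 2.39 CPM in control, 1.64, 1.04 and 0.953 CPM in IMQ and 1.33, 1.24 and 0.861 CPM in LYS libraries. Its call in IMQ skin (−1.09 ± 0.31, adjusted p = 0.0164) was lost without Control 1, Control 2, IMQ 2 or IMQ 3, with adjusted p from 0.0517 to 0.0589 in edgeR's test. Ptger1 was too low to test. The summed EP receptor level was 19.5 ± 5.68 FPKM in control skin, 3.51 ± 1.16 FPKM in IMQ skin and 8.38 ± 3.33 FPKM in LYS skin. FPKM is scaled by library totals alone. In TMM-scaled CPM these sums were 100 ± 31.9, 24.5 ± 5.94 and 47.7 ± 16.7 in the same order. Ptger4 overlaps exons of Ttc33 on the other strand, and the strand setting of the counting is not given in the sources used here. Hpgd, the enzyme that inactivates prostaglandins, did not pass the test in IMQ skin (0.31 ± 0.18, adjusted p = 0.171).

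The lipoxygenases changed places. Alox8 (ENSMUSG00000020891, chr11:69183932-69197843), an arachidonate lipoxygenase known to be induced in mouse skin by phorbol ester, stood at 2.90, 1.85 and 5.46 CPM in control, 205, 525 and 325 CPM in IMQ and 256, 178 and 7.58 CPM in LYS libraries. Every IMQ library was above every control library (6.68 ± 0.52, adjusted p = 3.84e-05, or 102-fold). Alox12e (ENSMUSG00000018907, chr11:70315610-70322628), the epidermal lipoxygenase, stood at 46.7, 33.8 and 53.6 CPM in control, 7.96, 3.43 and 5.94 CPM in IMQ and 15.1, 3.45 and 2.98 CPM in LYS libraries and was downregulated (−2.95 ± 0.31, adjusted p = 1.41e-04). Alox8 thus went from 3.81% ± 1.54 to 86.1% ± 5.63 of the summed FPKM of the 5 lipoxygenases among the members (the barrier enzymes Aloxe3 and Alox12b are not among them), and Alox12e from 65.0% ± 3.36 to 2.22% ± 1.60. Alox12 (ENSMUSG00000000320, chr11:70241457-70255353), the platelet-type enzyme, rose from 6.38, 6.80 and 10.6 to 27.1, 31.8 and 23.2 CPM (1.77 ± 0.23, adjusted p = 3.88e-04), and read 15.02, 12.8 and 11.7 CPM in the LYS group. Alox15, the leukocyte-type enzyme, did not pass the test (−0.89 ± 0.76, adjusted p = 0.335), with Control 1 above the other control libraries. The leukotriene branch starts with Alox5 (ENSMUSG00000025701, chr6:116410077-116461178) and its partner Alox5ap (ENSMUSG00000060063, chr5:149264767-149288153). Alox5 held 19.6, 18.3 and 16.3 CPM in control, 18.4, 17.3 and 22.3 CPM in IMQ and 28.8, 26.7 and 20.2 CPM in LYS libraries, and Alox5ap held 13.7, 10.3 and 8.34 CPM in control, 8.82, 14.4 and 8.87 CPM in IMQ and 12.9, 15.4 and 15.7 CPM in LYS libraries. Their IMQ and control libraries overlapped, with log2 fold changes of 0.09 ± 0.15, adjusted p = 0.617 for Alox5 and −0.02 ± 0.26, adjusted p = 0.945 for Alox5ap. The leukotriene synthases Lta4h (0.20 ± 0.10, adjusted p = 0.105) and Ltc4s (0.27 ± 0.42, adjusted p = 0.591) did not pass the test either.

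Among leukotriene receptors, the 2 that bind leukotriene B4 rose. Ltb4r1 (ENSMUSG00000046908, chr14:55765962-55768494), the high-affinity receptor of neutrophils, held 5.90, 4.07 and 7.61 CPM in control, 44.5, 75.9 and 68.1 CPM in IMQ and 53.2, 38.9 and 25.4 CPM in LYS libraries. Ltb4r2 (ENSMUSG00000040432, chr14:55761428-55765138), the low-affinity receptor known from keratinocytes, held 5.997, 5.97 and 11.1 CPM in control, 57.4, 79.9 and 75.2 CPM in IMQ and 62.03, 39.2 and 27.95 CPM in LYS libraries. Both had every IMQ and LYS library above every control library, with log2 fold changes in IMQ skin of 3.41 ± 0.28, adjusted p = 4.64e-05 for Ltb4r1 and 3.19 ± 0.27, adjusted p = 5.42e-05 for Ltb4r2. The genes lie 823 bases apart on chromosome 14. Cysltr1, the cysteinyl leukotriene receptor, did not pass the test (−0.33 ± 0.26, adjusted p = 0.294).

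**Figure D3:**
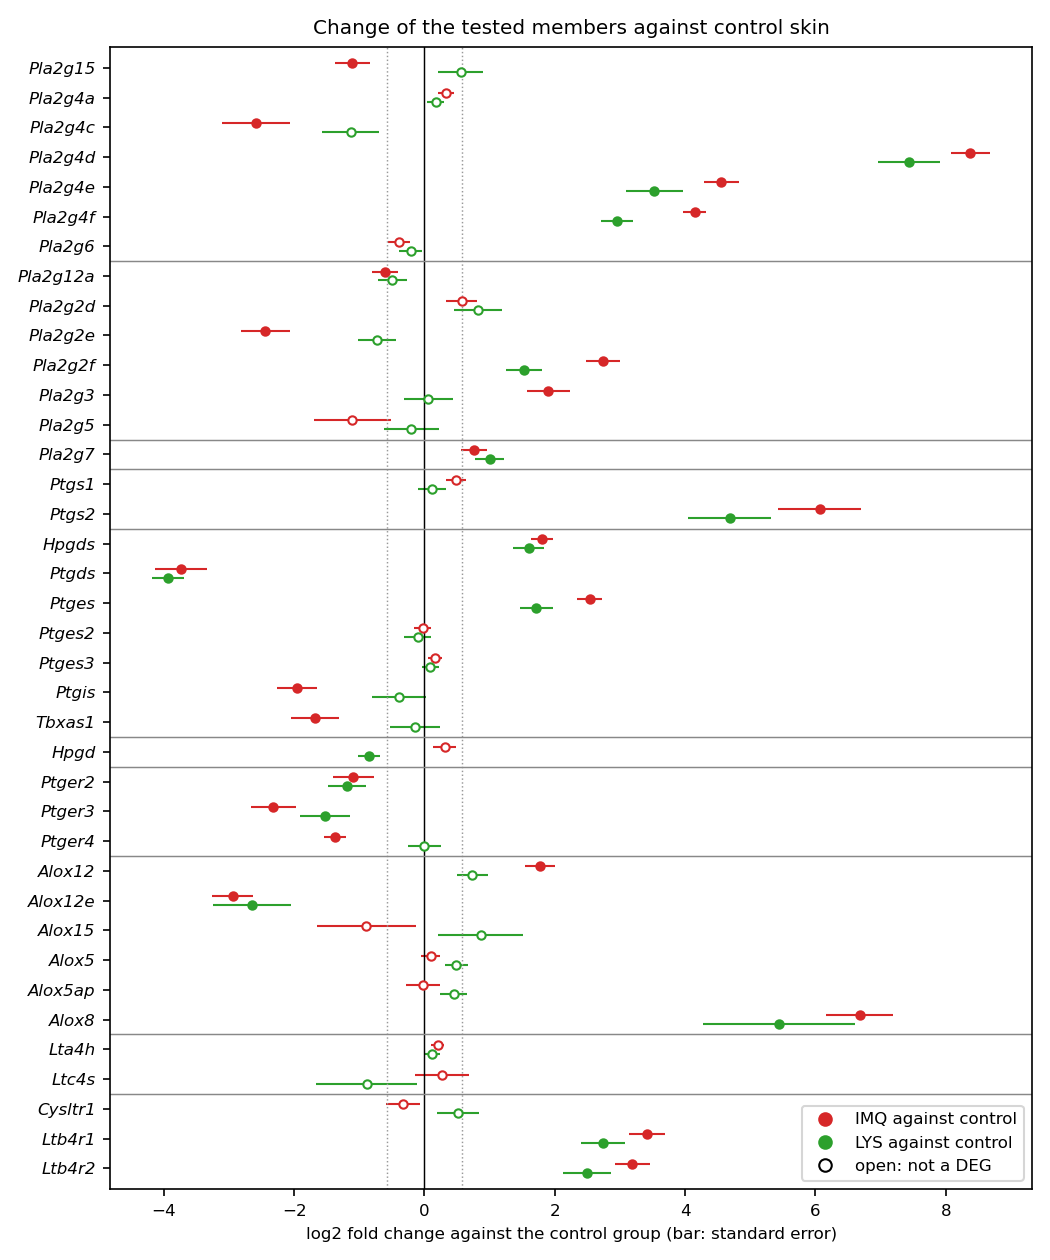
Points give the log2 fold change against the control group of the members tested, other than Pla2g4b, in IMQ skin (red) and LYS skin (green), with bars for the standard error. Filled points are DEGs, dotted lines mark ±0.58, and grey lines divide the roles. Pla2g4d has the largest change in both, at 8.38 and 7.43, and Ptger4 stands at −1.37 in IMQ skin and at −0.004 in LYS skin.

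Gene order showed where neighbours moved alike and where they did not. On chromosome 2, Ehd4 lies between Pla2g4b and Pla2g4e and did not pass the test (0.08, adjusted p = 0.688), whereas Pla2g4e, Pla2g4d and Pla2g4f, separated by 20259 and 10759 bases, all rose. On chromosome 4, Pla2g2f rose and Pla2g2e fell. On chromosome 11, the epidermal barrier lipoxygenases Aloxe3 (3.29 ± 0.25, adjusted p = 3.81e-05) and Alox12b (3.61 ± 0.24, adjusted p = 2.15e-05) rose beside Alox8, while elsewhere on the same chromosome Alox12, which rose, lies next to Alox12e, which fell.

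**Figure D4:**
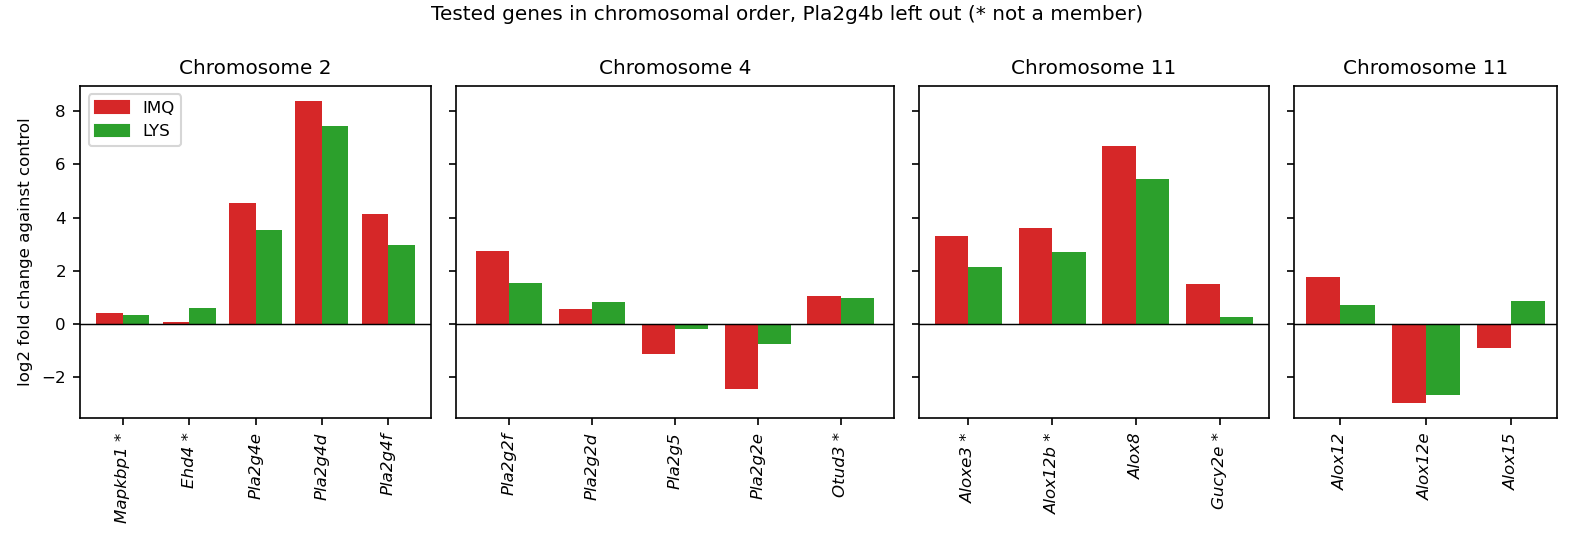
Bars give the log2 fold change against the control group in IMQ skin (red) and LYS skin (green) of the tested genes of 4 gene groups in chromosomal order, and an asterisk marks a gene that is not a member. The IMQ bars of Pla2g4e, Pla2g4d and Pla2g4f stand at 4.56, 8.38 and 4.15, beside 0.08 for Ehd4, and Alox12 and Alox12e point in opposite directions.

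Marker genes of the cell types of the skin differed between the groups as well. Of the keratinocyte markers, 6 of 6 basal and 9 of 9 suprabasal genes were upregulated in IMQ skin, and the suprabasal sum ranged from 4720 to 8139 CPM in control, 35898 to 60913 CPM in IMQ and 12725 to 24894 CPM in LYS libraries. Of the neutrophil markers, 7 of 9 tested were upregulated and 1 downregulated, and the sum of all 12 ranged from 40.3 to 91.1 CPM in control, 21135 to 28741 CPM in IMQ and 5855 to 17333 CPM in LYS libraries. S100a8 and S100a9, which keratinocytes also make, hold most of that sum in the IMQ and LYS libraries. Ly6g was at or under the floor of 3 counts in all control libraries, and Elane in all IMQ libraries. All 11 hair follicle markers tested were downregulated, from between 2651 and 5683 CPM in control libraries to at most 36.6 CPM in IMQ and 32.1 CPM in LYS libraries. Krt25, Krt31, Krt34 and Krt35 were at or under the floor in both of these groups, Krt28 in the IMQ group and Krt71 in the LYS group. Downregulated in IMQ skin were also 8 of 8 fibroblast, 10 of 10 adipocyte, 9 of 10 sebaceous, 8 of 10 muscle, 7 of 10 mast cell and 6 of 10 macrophage markers. The macrophage sum ranged from 1341 to 1870 CPM in control, 733 to 972 CPM in IMQ and 1250 to 3128 CPM in LYS libraries. Mast cell markers, from a cell type known for Hpgds, summed to 204 to 328 CPM, 173 to 285 CPM and 280 to 326 CPM in the same order, with 1 of 10 upregulated. Of 4 eosinophil markers tested 1 rose and 1 fell, with sums of 2.97 to 7.74 CPM in control, 4.99 to 6.89 CPM in IMQ and 6.22 to 10.8 CPM in LYS libraries. Of 4 platelet markers tested, from a cell type known for Alox12 and Tbxas1, none rose and 1 fell, with sums of 42.8 to 72.6 CPM, 17.7 to 29.7 CPM and 42.8 to 64.9 CPM in the same order. Epx and Ear1 were at or under the floor in the control group, and Prg2, Gp9 and Gp6 in the IMQ group. The part of these cell types in the changes of the pathway genes was not tested.

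LYS skin against control skin was compared to see which members stayed apart from control skin under the soup. The 3 chromosome 2 phospholipases, Pla2g2f, Ptgs2, Ptges, Hpgds, Alox8, Pla2g7 and both leukotriene B4 receptors were upregulated, by 2.002-fold (Pla2g7) to 173-fold (Pla2g4d). Alox12e, Ptgds, Ptger2, Ptger3 and Hpgd were downregulated. These were 11 and 5 of 38 members tested, against 15.1% and 12.9% of all 16003 genes tested. The median log2 fold change was 0.14 over the members and −0.01 over all genes tested. This comparison shares its control libraries with the comparison of IMQ and control skin.

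The largest rises in LYS skin were those of Pla2g4d (7.43 ± 0.48, adjusted p = 1.86e-04), Alox8 (5.44 ± 1.17, adjusted p = 0.0120) and Ptgs2 (4.69 ± 0.64, adjusted p = 0.00231). In each, every LYS library was above every control library, although LYS 3 came close to it in Alox8, with 7.58 CPM beside 5.46 CPM in Control 3. The LYS libraries of Alox8 differed 33.7-fold, and the call was lost without Control 1 (adjusted p = 0.0616 in edgeR's test) or Control 2 (0.0579), while the log2 fold change was 4.77 without LYS 1. For Ptgs2 it was 4.06 without LYS 1. Pla2g4e (3.53 ± 0.44, adjusted p = 0.00166), Pla2g4f (2.96 ± 0.25, adjusted p = 4.34e-04) and Pla2g2f (1.53 ± 0.27, adjusted p = 0.00619) were higher than in control skin. So were Ptges (1.72 ± 0.25, adjusted p = 0.00317), Hpgds (1.60 ± 0.24, adjusted p = 0.00327), Ltb4r1 (2.75 ± 0.34, adjusted p = 0.00166) and Ltb4r2 (2.49 ± 0.37, adjusted p = 0.00327). Pla2g7 (1.001 ± 0.23, adjusted p = 0.0144) lost its call without Control 2, Control 3 or LYS 2 (adjusted p from 0.0529 to 0.0681 in edgeR's test).

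On the lower side, Ptgds had the largest fall (−3.93 ± 0.25, adjusted p = 1.83e-04). Alox12e was lower by −2.65 ± 0.60, adjusted p = 0.0148, but LYS 1 stood at 15.1 CPM against 3.45 and 2.98 CPM in the others. Without LYS 1 the log2 fold change of Alox12e was −3.78, and without LYS 2 the call was lost (adjusted p = 0.0512 in edgeR's test). Ptger3 (−1.53 ± 0.38, adjusted p = 0.0212) and Ptger2 (−1.18 ± 0.29, adjusted p = 0.0194) each lost the call without Control 1, Control 2 or LYS 2, with adjusted p up to 0.0794 in edgeR's test. Hpgd, chosen after its values were seen, held 97.3, 91.2 and 78.7 CPM in control, 106, 86.9 and 139 CPM in IMQ and 57.9, 40.2 and 49.3 CPM in LYS libraries (ENSMUSG00000031613, chr8:56294585-56321043). All LYS libraries of Hpgd were below all others, and it was a DEG against control skin (−0.85 ± 0.17, adjusted p = 0.00895). Of members that were DEGs in IMQ skin, Ptger4 (−0.004 ± 0.25, adjusted p = 0.991), Pla2g3 (0.06 ± 0.37, adjusted p = 0.920), Tbxas1 (−0.14 ± 0.38, adjusted p = 0.795), Ptgis (−0.39 ± 0.42, adjusted p = 0.504), Pla2g15 (0.55 ± 0.35, adjusted p = 0.254), Pla2g2e (−0.73 ± 0.29, adjusted p = 0.0946), Pla2g4c (−1.13 ± 0.44, adjusted p = 0.0836) and Alox12 (0.73 ± 0.24, adjusted p = 0.0518) did not pass the test here. Alox12 was a DEG in DESeq2 (adjusted p = 0.0337), in a single edgeR fit of all 9 libraries (adjusted p = 0.0311) and in edgeR's test without Control 3 (1.002, adjusted p = 0.0232). Without LYS 1, Pla2g15 was a DEG in edgeR's test (0.86, adjusted p = 0.0331). Whether their 2 changes against the shared control group differ is read from the comparison of LYS with IMQ skin. Ptgs1 (0.12 ± 0.21, adjusted p = 0.697), Pla2g4a (0.17 ± 0.13, adjusted p = 0.350), Alox5 (0.49 ± 0.18, adjusted p = 0.0712) and Alox5ap (0.45 ± 0.21, adjusted p = 0.149) were not DEGs, although Alox5 was without LYS 3 (0.63, adjusted p = 0.0214 in edgeR's test).

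LYS skin against IMQ skin was compared to see what the soup changed in the inflamed skin. No member and no gene was a DEG in edgeR's test, in which 0% of 15460 genes were called in either direction. The smallest adjusted p was 0.0591, shared by 965 genes, 7 of them members. These were Pla2g3, Pla2g4f, Alox12 and Hpgd, which had lower values in LYS skin, and Pla2g15, Pla2g2e and Ptger4, which had higher values. An unadjusted p under 0.05 was reached by 17 of 38 members tested, 8 with higher and 9 with lower values. Among all genes tested, 19.3% and 15.9% reached it, so that the count of members with higher values was close to that share. The median log2 fold change was −0.04 over the members and 0.04 over all genes tested.

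This comparison shares its IMQ libraries with that of IMQ and control skin. Among members with lower values in LYS skin, the log2 fold changes were −1.80 ± 0.27, adjusted p = 0.0591 for Pla2g3, −1.17 ± 0.29, adjusted p = 0.0607 for Pla2g2f, −1.14 ± 0.21, adjusted p = 0.0591 for Pla2g4f and −0.99 ± 0.17, adjusted p = 0.0591 for Alox12. Pla2g4e (−0.99 ± 0.36, adjusted p = 0.107) and Pla2g4d (−0.90 ± 0.29, adjusted p = 0.0833) were at 0.503 and 0.535 of the IMQ level. In all of these the LYS libraries lay below the IMQ libraries without overlap. They did so for Hpgd (−1.11 ± 0.21, adjusted p = 0.0591) and for the low-count Ltc4s (−1.10 ± 0.79, adjusted p = 0.345) as well, which both had not passed the test in IMQ against control skin. Ltc4s held 0.919, 1.06 and 0.439 CPM in control, 1.16, 0.894 and 0.880 CPM in IMQ and 0, 0.679 and 0.574 CPM in LYS libraries, with LYS 1 at 0 counts. Ptges (−0.77 ± 0.27, adjusted p = 0.0961) and Ltb4r2 (−0.66 ± 0.28, adjusted p = 0.139) had unadjusted p under 0.05 but overlapping libraries. Ptgs2 (−1.35 ± 0.69, adjusted p = 0.205) and Alox8 (−1.21 ± 0.98, adjusted p = 0.402) overlapped too: LYS 1 was above IMQ 1 in both genes.

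Among members with higher values in LYS skin were Alox15 (1.82 ± 0.47, adjusted p = 0.0633), Pla2g2e (1.77 ± 0.37, adjusted p = 0.0591), Pla2g15 (1.73 ± 0.36, adjusted p = 0.0591), Ptgis (1.64 ± 0.46, adjusted p = 0.0688), Tbxas1 (1.60 ± 0.52, adjusted p = 0.0833) and Ptger4 (1.43 ± 0.28, adjusted p = 0.0591), each without overlap. Alox15 held 6.09, 1.02 and 1.17 CPM in control, 0.669, 1.42 and 2.42 CPM in IMQ and 4.19, 4.41 and 6.43 CPM in LYS libraries, so that only Control 1 was as high as the LYS libraries. Cysltr1 (0.90 ± 0.31, adjusted p = 0.0909) and Alox5 (0.44 ± 0.18, adjusted p = 0.123) had unadjusted p under 0.05 with overlapping libraries. Ptgds (−0.13 ± 0.59, adjusted p = 0.886), Hpgds (−0.15 ± 0.22, adjusted p = 0.647), Ptger2 (−0.04 ± 0.37, adjusted p = 0.954) and Alox12e (0.34 ± 0.66, adjusted p = 0.730) were close to IMQ skin or varied among libraries, and a p that misses the threshold does not show that they were the same. Without overlap between the groups were 6 members with higher and 8 with lower values of the 38 tested, against 16.8% and 22.1% of all genes. Both counts were close to these shares, so lack of overlap did not set the members apart from other genes.

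**Figure D5:**
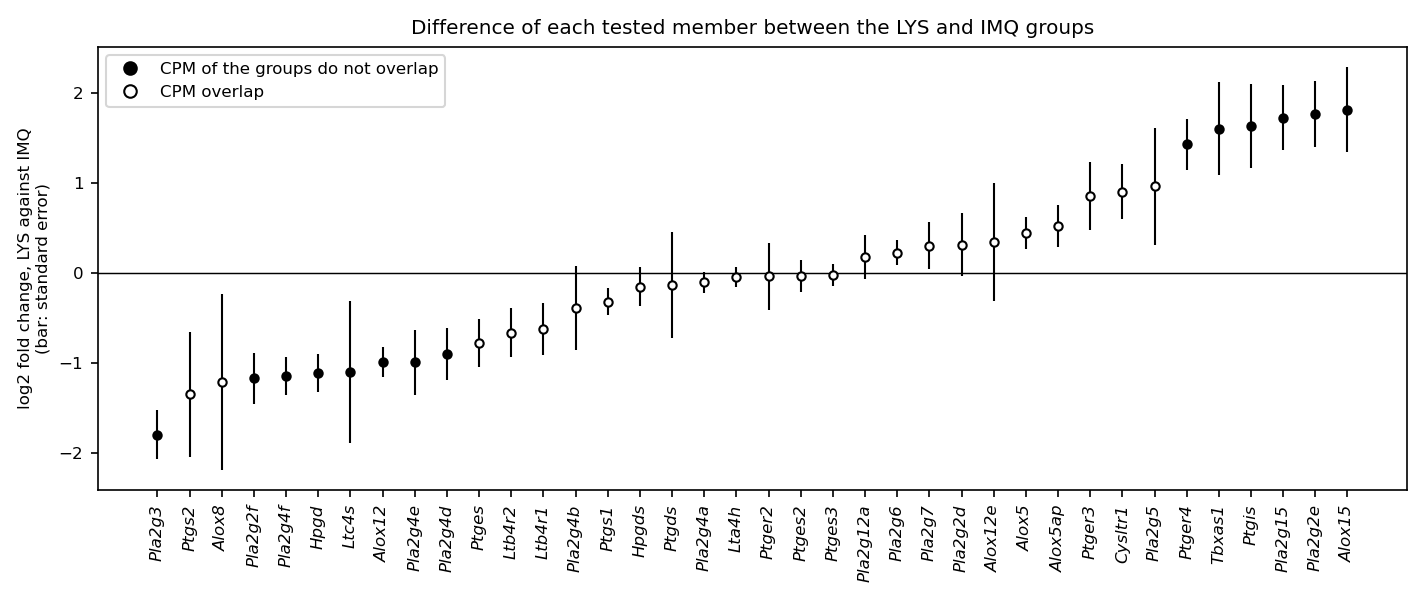
Points give the log2 fold change of LYS against IMQ skin for the 38 members tested, in order of size, with bars for the standard error. Filled points are members whose CPM did not overlap between the 3 LYS and 3 IMQ libraries. Pla2g3 stands lowest at −1.80 and Alox15 highest at 1.82, and none was a DEG in edgeR's test.

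Other fits called members in this comparison. DESeq2 called 7 higher and 8 lower of 37, against 12.8% and 9.18% of all genes. A single edgeR fit of all 9 libraries called 5 and 7 of 39, against 9.93% and 8.62%. Without LYS 1, 8 and 9 of 39 were called, against 14.9% and 11.9%, and without IMQ 1, 3 and 5 of 39, against 6.80% and 5.03%. Leaving out any other library gave none, and neither did the replicate block, library totals alone or DESeq2 size factors in edgeR. Pla2g15, Pla2g2e and Ptger4 (higher) and Alox12, Hpgd, Pla2g2f, Pla2g3 and Pla2g4f (lower) were called in all 4 of these fits. The 4 fits are named because they called genes, and over all fits the adjusted p of each of these members went up to 0.220 in edgeR's test.

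Within the LYS group, LYS 1 held the highest and LYS 3 the lowest level of Ptgs2, Pla2g4e, Pla2g4f, Ptges, Alox8, Alox12, Ltb4r1 and Ltb4r2. Alox12e and Ptger2, which had fallen in IMQ skin, kept this order too. So did Pla2g4a, Pla2g5, Ptgs1, Ptges2, Ptges3, Lta4h and Alox5, which were not DEGs there. In Pla2g15, Pla2g2e, Pla2g4c, Ptger3, Ptger4, Ptgis, Tbxas1, Pla2g2d, Alox15 and Alox5ap, LYS 3 was the highest and LYS 1 the lowest. Pla2g2f, Pla2g3, Pla2g4b, Pla2g4d, Pla2g7 and Hpgds, which had risen in IMQ skin, kept neither order. Nor did Ptgds and Pla2g12a, which had fallen, or Hpgd, Pla2g6, Cysltr1 and Ltc4s, which were not DEGs in IMQ skin. How many of all genes kept either order was not counted. Marker sums also differed among these libraries. Neutrophil markers summed to 17333, 16252 and 5855 CPM, basal keratinocyte markers to 13014, 8099 and 7250 CPM and suprabasal markers to 24894, 12725 and 14596 CPM in LYS 1, LYS 2 and LYS 3. Fibroblast markers summed to 9239, 14807 and 17961 CPM, macrophage markers to 1250, 2630 and 3128 CPM and adipocyte markers to 1692, 2441 and 3944 CPM in the same libraries. Their part in the spread of the members was not tested.

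Other genes of the pathway were followed in 4 lists, whose counts stand beside 24.1% of all genes higher and 26.9% lower in IMQ skin, and 15.1% and 12.9% in LYS skin, each against control skin. Of 18 further phospholipid-related genes tested, 6 rose and 5 fell in IMQ skin, and 4 rose and 0 fell in LYS skin against control skin. Their largest changes in IMQ skin were those of Plaat1, an acyltransferase and phospholipase (−2.27 ± 0.37, adjusted p = 0.00121), Plbd1 (2.14 ± 0.15, adjusted p = 3.03e-05) and phospholipase B1, Plb1 (1.85 ± 0.43, adjusted p = 0.00617). Of 9 further lipoxygenase and epoxide genes, 6 rose and 2 fell in IMQ skin, and 5 rose and 1 fell in LYS skin. They were led by Cyp4f18, known to degrade leukotriene B4 in neutrophils (6.22 ± 0.80, adjusted p = 3.59e-04), at 1.40, 0.601 and 0.0975 CPM in control, 16.4, 84.7 and 58.6 CPM in IMQ and 27.5, 18.1 and 6.08 CPM in LYS libraries. Alox12b and Aloxe3 followed. Of 14 further prostanoid genes tested in IMQ skin 5 rose and 6 fell, and of 15 tested in LYS skin 4 rose and 0 fell, with Cbr3, a carbonyl reductase (2.16 ± 0.15, adjusted p = 2.39e-05), Ptgfr, the prostaglandin F receptor (−2.10 ± 0.33, adjusted p = 9.42e-04), and Akr1c18 (1.68 ± 0.23, adjusted p = 5.14e-04) in front. Of 11 further leukotriene and lipoxin genes, 5 rose and 4 fell in IMQ skin, and 5 rose and 2 fell in LYS skin. Ggt1, which trims glutathione from leukotriene C4, fell from 9.96, 5.46 and 13.5 to 0.0608, 0.820 and 0 CPM (−5.08 ± 0.78, adjusted p = 8.36e-04). The formyl peptide receptors Fpr2 (3.55 ± 0.54, adjusted p = 8.09e-04) and Fpr1 (3.39 ± 0.52, adjusted p = 8.25e-04), which draw neutrophils, rose. In LYS skin against IMQ skin no gene of these lists was a DEG.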

How the data were processed

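Raw counts per gene and FPKM of 9 skin libraries were deposited by the authors. Per the labels the kit was NEBNext Ultra, and HISAT2, HTSeq 0.13.5 and the build GRCm38 come from the submitters' processing notes. The strand setting of HTSeq is not given in the sources used here, so reads of genes that overlap on opposite strands may be shared. The deposited FPKM values use GENCODE M21 exon lengths in all 43 members. No column of per-sample values was without a sample (0 columns). Counts were analysed in R 4.3.3 with edgeR 4.0.16 (TMM, filterByExpr, glmQLFit, glmQLFTest), fitting only the 2 groups compared, and DESeq2 1.42.0 was an alternative, as were other scalings, no filter, a single fit, a replicate block and leaving out each library. Tests were tried on simulated counts first. CPM used TMM factors over all 9 libraries, and a floor of 3 counts per library bounded folds against groups at 0.

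Values in every library are given for members that were DEGs against control skin with an absolute log2 fold change of at least 1 and a mean of at least 1 CPM in a compared group, and for Ptgs1, Ptgs2, Alox5, Alox5ap and Pla2g4a. Of each further pathway list the up to 3 DEGs with the largest change in IMQ skin are named. Hpgd, Alox15 and the genes between members were added after their values were seen. The members and lists were chosen with earlier results of these data known. Replicate numbers did not pair the libraries (correlations of same-numbered deviations from −0.46 to 0.20). Replicates of a group differed by more than sampling noise (chi-square per degree of freedom 16.9 to 100.04). Depth was 14658645 to 19609878 counts per library.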

Additional observations from a re-analysis of the deposited data

How the results depend on the processing

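Scaling by library totals alone moved the median log2 fold change of all genes tested from −0.06 to −0.51 in IMQ against control skin, from 0.04 to 0.29 in LYS against IMQ skin and from −0.01 to −0.15 in LYS against control skin, so changes are relative to such a shift. In IMQ against control skin the counts of DEGs and of members stayed within 1.5 times their values of 8145, 14 and 11 under every alternative. In LYS against IMQ skin, where the test called 0, dropping the filter on low counts gave 2419 DEGs with 6 members higher and 6 lower, DESeq2 gave 3334 with 7 and 8, and a single fit of 9 libraries gave 3040 with 5 and 7. Without the filter the share of all genes in each direction was not counted. The shares for DESeq2, the single fit and the fits without LYS 1 or IMQ 1 are given above. Leaving out a library gave 0 to 4262 DEGs, 0 to 8 members higher and 0 to 9 lower there; only without IMQ 1 (1873 DEGs) and without LYS 1 (4262) were any called. In LYS against control skin (4476 DEGs), an absolute log2 fold change over 1 left 2910, and leaving out a library gave 2579 to 5072 DEGs and 2 to 5 members lower (2 without LYS 2, 3 without Control 1 or Control 2). For these fits the share of all genes called lower was not counted. With a replicate block 8044, 0 and 3126 DEGs were called in the 3 comparisons, and the block ended the calls of Alox8, Pla2g7 and Ptger2 in LYS against control skin (adjusted p of 0.0730, 0.05003 and 0.0573 in edgeR's test). By CPM instead of FPKM, the share of Pla2g4d, Pla2g4e and Pla2g4f was 13.8%, 56.1% and 48.1% in the control, IMQ and LYS groups, that of Ptges 32.8%, 71.8% and 59.8%, and that of Alox12e in the control group 57.8%. Library totals ended the call of Pla2g7 in IMQ skin (log2 fold change 0.29).

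Directions that turned belonged to values that were no DEGs, and the cause was not tested. By library totals the log2 fold change in IMQ against control skin was −0.12 for Pla2g4a, −0.36 for Alox5 and −0.14 for Hpgd; in LYS against IMQ skin it was 0.15 for Pla2g4a, 0.20 for Ptger2, 0.11 for Hpgds and 0.10 for Ptgds; and in LYS against control skin −0.043 for Ptgs1 and −0.11 for Pla2g3. DESeq2 size factors gave 0.013 for Alox5ap in IMQ skin, and the replicate block gave 0.022 for Ptgds in LYS against IMQ skin. With a library left out, some values turned at one end of these ranges. In IMQ against control skin Alox5 ranged from −0.0054 to 0.18 and Alox5ap from −0.28 to 0.18. In LYS against IMQ skin Alox12e ranged from −0.77 to 0.71, Ptger2 from −0.18 to 0.25 and Ptgds from −0.55 to 0.32. In LYS against control skin Ptgs1 ranged from −0.061 to 0.29, Ptger4 from −0.31 to 0.20, Tbxas1 from −0.61 to 0.17 and Pla2g3 from −0.26 to 0.33. Over all named members and alternatives, 333, 267 and 305 values kept direction and side of the threshold in IMQ against control, LYS against IMQ and LYS against control skin. In the same order, 8, 10 and 11 values turned direction, and 1, 59 and 5 gained a call. A call was lost in 6 values in IMQ against control skin and in 15 in LYS against control skin.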
